A study of Mus musculus with 12 samples.

Results

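The genes described here are 44 genes of DNA replication and S-phase progression that are widely used as targets of E2F transcription factors. They were taken by name from a list of 45 symbols. Of the 45 symbols, 44 were found among the 19012 gene symbols of the deposited data. The remaining one, Orc1, is listed there under its older symbol Orc1l and is given separately. A filter on low values left 43 of the 44 genes, among 11351 genes tested in all, and removed Clspn, which encodes a checkpoint adaptor protein.

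Cells license replication origins in G1, when ORC, CDC6 and CDT1 load the MCM2-7 helicase onto DNA. At S-phase entry cyclin E-CDK2 and other kinases activate that helicase with the help of CDC45, the GINS complex and MCM10, and polymerases then copy the DNA behind it. Activating E2F proteins switch on the genes for these steps, and the atypical members E2F7 and E2F8 bind the same kind of DNA element and repress. Most hepatocytes of the adult liver are out of the cell cycle, so these genes are usually at low levels there.

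To show the element that gives the genes their name, the promoter windows of RefSeq on GRCm38.p6 were searched. Each window runs from 250 bases before to 50 bases after an annotated start. The letters TTTCGCGC, TTTGGCGC and TTTCCCGC were searched on both strands, counting overlapping matches. Of the 44 genes, 39 had an entry, with 46 windows. At least 1 match was present for 18 of the 39 genes (46.2%), against 2.12% of all genes in the table. By window, 39.1% of the members' windows and 1.84% of all 32851 windows held a match. The letters CCAAT, on either strand, were in 58.7% of the members' windows and 37.4% of all windows. Stretches of 40 bases from 6 genes with a single window and a match before the start are shown as examples, on the strand of the gene, 5′ to 3′. Dtl, Rfc3 and Gins3 also have a single window with such a match and are not shown. Capitals mark the matched letters. The stretches, in the order given, are at chr1:128359792-128359831 (minus strand), chr8:75109340-75109379 (plus), chr11:98907997-98908036 (plus), chr19:38930912-38930951 (plus), chrX:93632270-93632309 (minus) and chr2:157204535-157204574 (minus).
Mcm6: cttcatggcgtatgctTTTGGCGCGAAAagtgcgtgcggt
Mcm5: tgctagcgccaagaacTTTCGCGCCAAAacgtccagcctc
Cdc6: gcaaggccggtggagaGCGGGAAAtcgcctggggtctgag
Hells: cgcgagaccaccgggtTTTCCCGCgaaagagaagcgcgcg
Pola1: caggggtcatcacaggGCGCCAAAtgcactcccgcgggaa
Rbl1: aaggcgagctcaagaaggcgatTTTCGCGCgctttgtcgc
In Mcm6 and Mcm5 the capitals cover 2 matches, 1 on each strand, that overlap. The windows of Mcm10, Rrm2, Brca1, Tk1 and Tyms, which are described below, held none of the 3 sets of letters. A match is a string of letters in the reference sequence and no measurement of binding. Only 3 exact strings were searched in these windows, so the lack of a match does not show that a gene lacks an E2F site.

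Expression was measured by RNA sequencing of polyadenylated RNA in 12 mouse libraries. Levels are in RPKM, which scales the reads of a transcript by its exon length in kilobases and by the depth of the library in M reads (M for mega). The groups were 4 livers labelled wild type, 4 livers labelled E2F7/8 DKO (knockout of both genes) and 4 liver tumors labelled E2F7/8 DKO. By the codes in the deposited names, each DKO tumor comes from the animal of the DKO liver with its number, and the wild-type livers come from other animals. Strain, age, sex, the kind of deletion, any Cre driver and how tumors were dissected are not given in the sources used here. The 4 libraries of a group have separate animal codes, so they are taken as separate animals.

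Depth ranged from 7.985 to 15.956 M reads per library, and for an exon length of 2 kb a single read was worth 0.0313 to 0.0626 RPKM. The 44 genes had 1 to 2076 reads per library with a median of 90.5, and 16 of the 528 values rested on fewer than 10 reads. All 10 hepatocyte markers passed the filter, and their summed level was 52500 to 76700 RPKM in wild-type livers, 45700 to 118000 in DKO livers, with 74100 to 133000 in DKO tumors. E2f7 and E2f8 gave no check of the genotype, because the deleted exons are not given: E2f7 ranged from 0.103 to 0.200 RPKM in wild-type livers, 0.211 to 0.400 in DKO livers, with 0.0365 to 0.259 in DKO tumors. E2f8 ranged from 1.66 to 4.30, 2.80 to 20.8 and 1.66 to 12.2 RPKM in the same groups. Deposited names also carry a tag, which is L02 in every DKO liver, L03 in every DKO tumor, L02 in wild-type livers 1 and 2 and L03 in wild-type livers 3 and 4. What the tag stands for is not stated, and between DKO liver and DKO tumor the tag and the tissue cannot be told apart.

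The replication genes went up and down together from library to library within every group. Their mean on the log2(RPKM + 1) scale ranged over the 4 libraries from 1.47 to 2.225 in the wild-type livers, from 1.567 to 2.781 in the DKO livers and from 1.775 to 2.755 in the tumors, so the ranges of the 3 groups overlapped. Among wild-type livers, library 2 was the highest of the 4 for 35 of the 43 tested genes (81.4%, against 27.6% of all tested genes). In DKO livers, library 3 was the highest for 41 of 43 (95.3%, against 58.1%). In DKO tumors, library 2 was the highest for 37 of 43 (86.0%, against 15.1%). Wild-type liver 1 was the lowest of its group for 27 genes (62.8%, beside 34.4% of all genes). DKO livers 2 and 1 were lowest for 24 and 17 genes (55.8% and 39.5%, beside 25.8% and 21.2%). Tumor 4 was lowest for 16 genes (37.2%, beside 13.7%). Tumor 1 was lowest for 24 genes (55.8%), which is under its share of all genes (64.3%).

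DKO liver 3 is high for most genes of any kind in the deposited values, so the ranks were also taken after median-of-ratios scaling. The same libraries then led, with 33 of 43 genes for wild-type liver 2 (76.7%, against 25.4% of all genes), 34 of 43 for DKO liver 3 (79.1%, against 24.6%) and 39 of 43 for DKO tumor 2 (90.7%, against 23.7%). The lowest tumor for 34 of 43 genes was then tumor 4 (beside 27.7% of all genes). Tumor 1 was then lowest for 6 of 43 (beside 22.7%). On the log2(RPKM + 1) scale the median within-group SD of the members was 0.37 in wild-type livers, 0.59 in DKO livers, with 0.56 in DKO tumors. The median over all tested genes was 0.22, 0.28 and 0.29. In the deposited values Mcm10, a helicase activation factor, Gins4, a GINS subunit, and Cdt1, an MCM loader, were highest neither in wild-type liver 2 nor in DKO tumor 2.

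**Figure D1:**
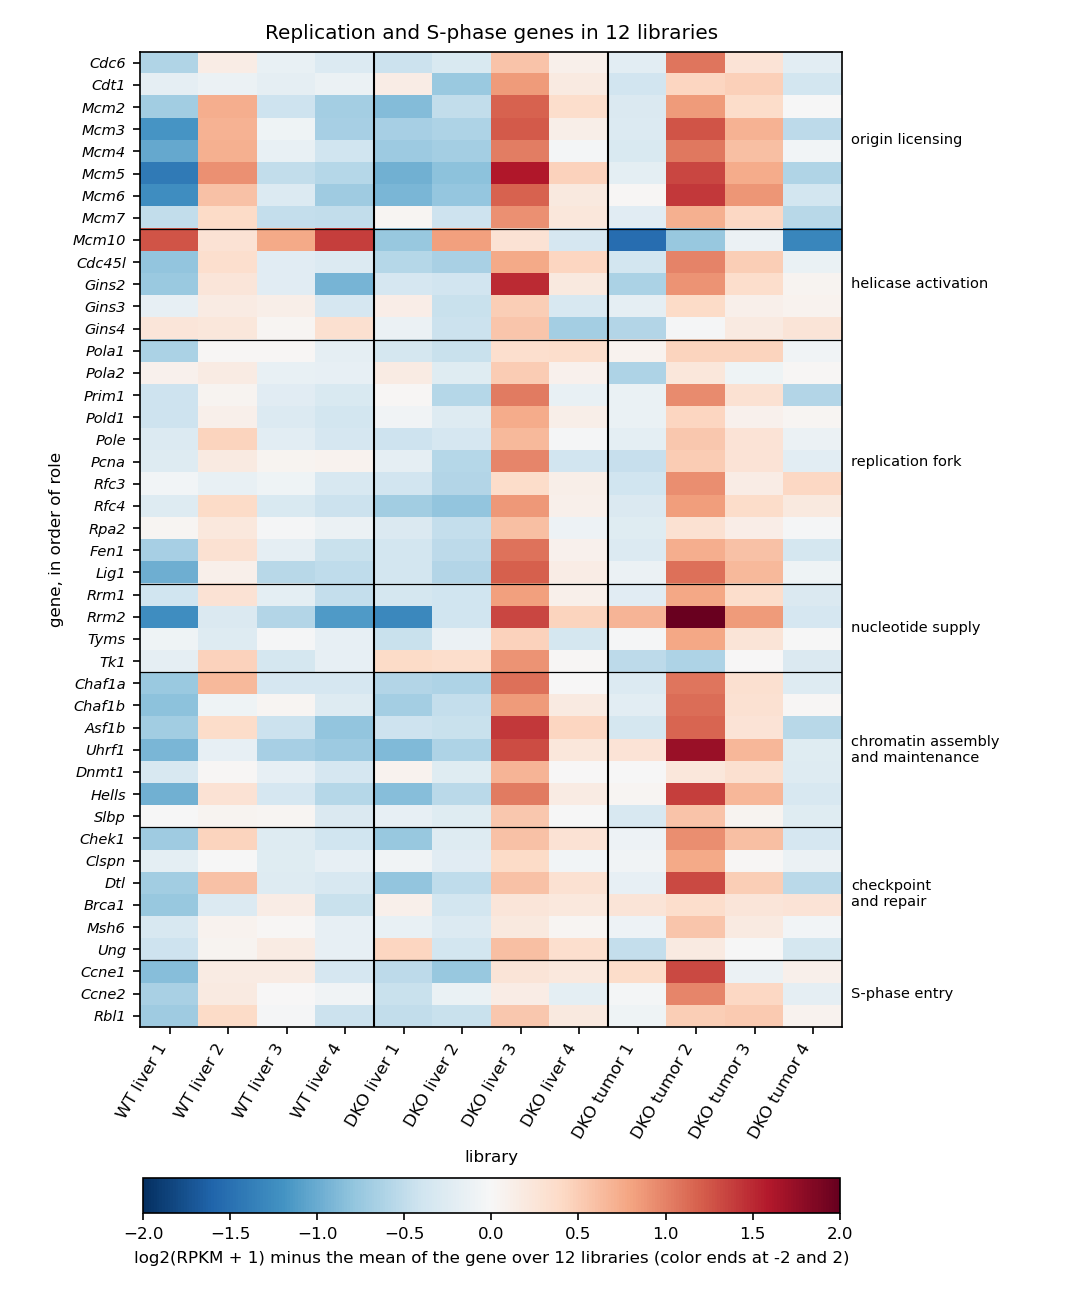
Each row is 1 of the 44 genes, in order of role, and each column 1 of 12 libraries; the color is log2(RPKM + 1) minus the mean of the gene over 12 libraries. Wild-type liver 2, DKO liver 3 and DKO tumor 2 are red in most rows, while Mcm10 is red in the wild-type livers and blue in the tumors.

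The first comparison, DKO liver against wild-type liver, sets the livers labelled DKO beside those labelled wild type. No member passed the test: 0 of 43 rose and 0 fell by limma at an adjusted p under 0.05, where 0.0% of the 11351 genes were called in either direction. At an unadjusted p under 0.05, limma had 0 members higher and 1 lower (Mcm10), beside 9.16% and 3.24% of all genes. Voom on the recovered reads called 0 members at an adjusted p under 0.05. The median log2 difference of the members was 0.23, beside 0.08 over all genes, and 38 of 43 were above 0, where 60.5% of all genes were. No member had groups of libraries that did not overlap, beside 5.62% of all genes higher and 1.96% lower. The median rested on DKO liver 3, since it was -0.03 without that library. Leaving out wild-type liver 1 gave 0.07, leaving out wild-type liver 2 gave 0.40, and after quantile normalization it was 0.09 with 26 of 43 above 0.

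The second comparison, DKO tumor against wild-type liver, gave 1 call among the members: Mcm10 fell and 0 rose, beside 0.67% of all genes lower and 1.23% higher. At an unadjusted p under 0.05 there were 4 members higher, Rrm2, Brca1, Uhrf1 and Lig1 (9.3%, beside 8.77% of all genes), and Mcm10 lower (beside 10.4%). The median log2 difference was 0.42, beside -0.02 over all genes, with 38 of 43 above 0, where 47.1% of all genes were. It was 0.21 without DKO tumor 2 and 0.28 without wild-type liver 1. In the deposited values, groups that did not overlap were seen for Brca1 and Tyms, with the tumors higher (4.65%, beside 5.57% of all genes). They were also seen for Mcm10, with the tumors lower (2.33%, beside 6.32%).

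The third comparison, DKO tumor against DKO liver, called 0 of 43 members in either direction, beside 0.00881% of all genes higher and 0.0% lower. Limma at an unadjusted p under 0.05 had 0 members higher (beside 4.01% of all genes) and 2 lower, Tk1 and Mcm10 (beside 12%). Voom called 0 members at an adjusted p under 0.05. With the animal as a block the call count over all genes grew to 71 (0.308% higher and 0.317% lower), and that of the members was still 0. The median log2 difference was 0.24, beside -0.09 over all genes, with 32 of 43 above 0, where 37.2% of all genes were. Median-of-ratios scaling moved the median of all genes to 0.02, a shift over 0.1, and that of the members to 0.31 with 38 of 43 above 0. Without DKO tumor 2 the members' median was 0.02, without DKO liver 1 it was 0.07 and without DKO liver 2 it was 0.04. In the deposited values, groups that did not overlap were seen for Brca1, with the tumors higher (beside 2.12% of all genes). They were also seen for Tk1, with the tumors lower (beside 4.08%). Every pair of the 3 comparisons shares a group of libraries, so the 3 medians are not separate evidence.

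**Figure D2:**
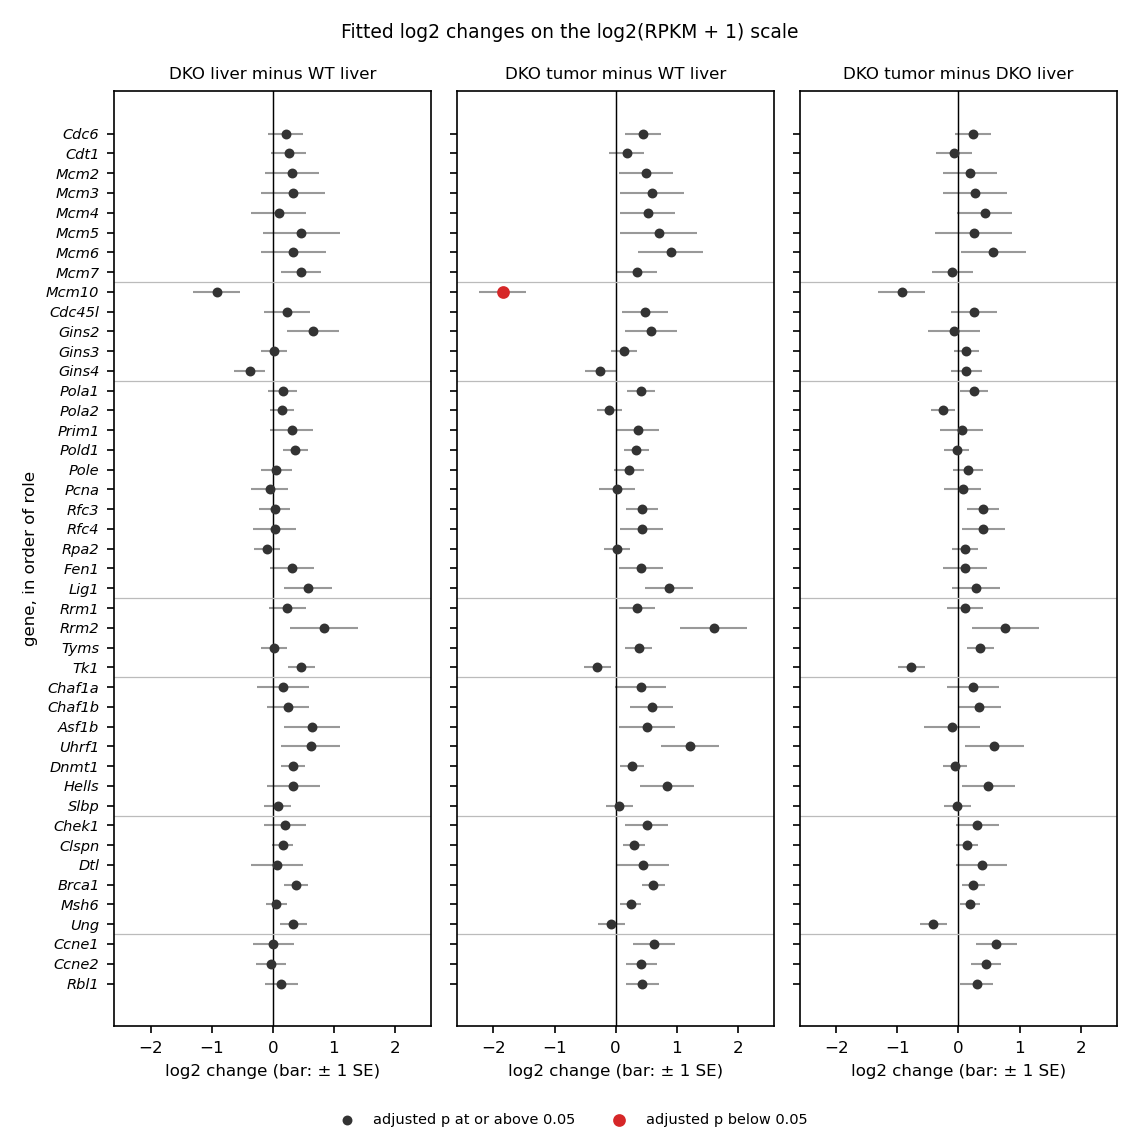
Points are fitted log2 changes on the log2(RPKM + 1) scale and bars are 1 SE, for 44 genes in order of role, with Clspn taken from the fit without a filter. Only Mcm10 in DKO tumor minus wild-type liver (-1.85) is past the adjusted p threshold, and most other points sit right of 0 with bars that reach or near it.

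Origin licensing was covered by Cdc6 and Cdt1, the MCM loaders, and by Mcm2 to Mcm7, the 6 subunits of the replicative helicase. All 8 were above 0 in both comparisons with wild-type liver, with medians of 0.32 in DKO livers, with 0.52 in DKO tumors, and none passed the test (smallest adjusted p = 0.561 and 0.381, limma). The 6 helicase subunits summed to 10.5, 45.7, 20.7 and 15.7 RPKM in wild-type livers 1 to 4. In the same order it was 15.1, 15.2, 68.7 and 31.9 for the DKO livers, with 22.6, 66.6, 45.3 and 19.7 for the tumors. Within each group the highest library was well above the lowest, and the groups overlap.

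Mcm6, a helicase subunit, is on mm9 chromosome 1 from 130228167 to 130256232. It was at 2.07, 9.90, 5.05 and 3.44 RPKM in wild-type livers (5.11 ± 3.42, SD, n = 4) and at 2.88, 3.26, 15.6 and 7.32 in DKO livers (7.25 ± 5.89). In DKO tumors it was at 6.42, 18.5, 12.5 and 4.66 RPKM (10.5 ± 6.29). The highest wild-type liver was above 2 of the 4 tumors, and the difference between tumor and wild-type liver, 0.90 with an SE of 0.53, did not pass (limma, adjusted p = 0.381). Mcm3, another subunit, had the same order, with 1.82, 9.31, 5.01 and 3.02 RPKM in wild-type livers, 3.04, 3.18, 13.9 and 5.94 in DKO livers, with 4.30, 14.3, 9.28 and 3.44 in DKO tumors. Mcm5 ran from 0.622 RPKM in wild-type liver 1 to 7.12 in wild-type liver 2, a ratio of 11.4, and Cdc6, a low gene, from 0.0272 to 0.728 in the same libraries. Cdt1 was the least variable of the 8 there, from 1.77 to 1.89 RPKM. Orc1l, the largest ORC subunit under its older symbol, was at 0 to 0.337 RPKM in wild-type livers, 0.0275 to 0.647 in DKO livers, with 0.187 to 0.653 in DKO tumors 1 to 3 with 0.177 in tumor 4, and it was too low to test.

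Helicase activation was covered by Mcm10, Cdc45l (now Cdc45) and the GINS subunits Gins2, Gins3 and Gins4. Mcm10, on mm9 chromosome 2 from 4911793 to 4933780, had the highest mean of the 44 genes over the 12 libraries and was the only one called in the 12-library fit. In the tumors its mean was below those of Rrm2, Mcm6, Rfc3 and Rrm1. It was at 38.9, 19.5, 27.3 and 42.7 RPKM in wild-type livers (32.1 ± 10.7, SD, n = 4), at 8.89, 28.5, 19.4 and 12.3 in DKO livers (17.3 ± 8.66), with 4.83, 8.88, 14.5 and 5.75 in DKO tumors (8.5 ± 4.39). All 4 tumors were below all 4 wild-type livers, and the DKO livers overlapped with both groups. Mcm10 fell by 1.85 on the log2 scale from wild-type liver to DKO tumor (SE 0.38, adjusted p = 0.0319, limma), and the tumor mean was 0.265 of the wild-type mean. The DKO livers were intermediate, with -0.92 against wild-type liver (adjusted p = 0.378) and -0.93 for tumor against DKO liver (adjusted p = 0.254), neither of which passed. Across 24 alternatives the tumor difference stayed between -2.12 and -1.63, while the adjusted p ranged from 0.0109 to 0.198 and passed in 13.

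The call of Mcm10 was lost with the replicate number as a block (adjusted p = 0.0688, limma), without a filter on low values (0.0542), with the name tag as a covariate (-2.0, 0.198) and among libraries of tag L03 alone (-2.0, 0.166). It was also lost without wild-type livers 1, 3 or 4 in turn (0.113, 0.0505 and 0.109), without DKO tumors 1, 2 or 4 in turn (0.0758, 0.0846 and 0.0649), and without DKO animals 1 and 2 together (-1.63, 0.166).

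The order of the libraries by Mcm10 was unlike that of the helicase it serves. Wild-type liver 1 was the second highest of 12 in Mcm10 and the lowest in the sum of Mcm2 to Mcm7. DKO tumor 2 had rank 10 in Mcm10 and rank 2 in the helicase sum. The level of Mcm10 over the mean of Mcm2 to Mcm7, both in RPKM, was 22.2, 2.56, 7.92 and 16.4 in wild-type livers, 3.53, 11.3, 1.69 and 2.32 in DKO livers, and 1.28, 0.80, 1.93 and 1.75 in DKO tumors. The ratio was below 2 in all 4 tumors and above it in all 4 wild-type livers. Mcm10 made up 29.1% of the summed RPKM of the 44 genes in wild-type liver 1 and 2.92% in DKO tumor 2, so sums over the whole set are given without it.

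Gins4 did not follow the other GINS genes. It was at 9.91, 9.85, 8.54 and 10.6 RPKM in wild-type livers (9.72 ± 0.858), 7.53, 5.88, 12.6 and 4.75 in DKO livers (7.69 ± 3.47), with 5.14, 8.11, 9.45 and 10.1 in DKO tumors (8.21 ± 2.21). The wild-type livers lay close together, and both DKO groups spread more widely, with -0.38 and -0.25 against wild-type liver (adjusted p = 0.526 and 0.641, limma). Gins2 spread from 0.406 to 2.18 RPKM in wild-type livers, from 1.06 to 6.57 in DKO livers and from 0.725 to 4.02 in DKO tumors. Its mm9 span overlaps that of Gse1, on the other strand, by 111 bases, and whether reads were counted by strand is not stated.

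**Figure D3:**
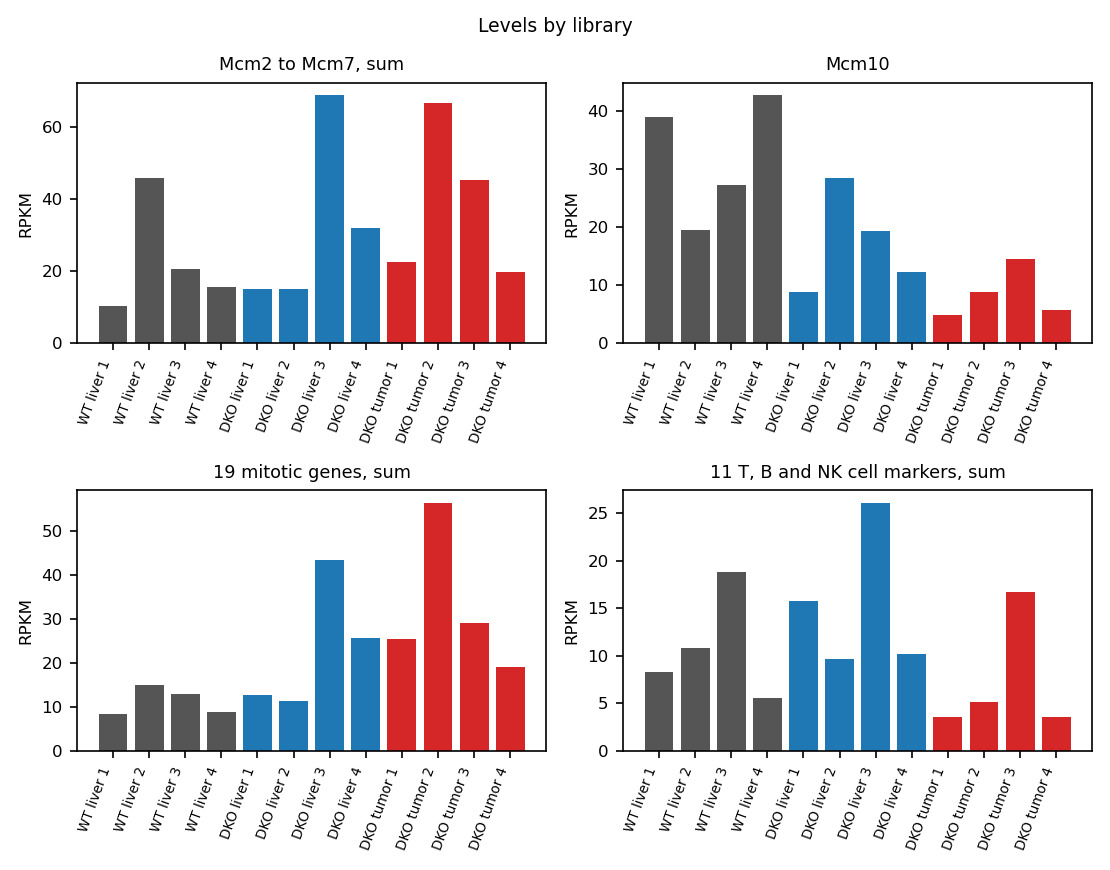
Bars are RPKM in each of 12 libraries (gray wild-type livers, blue DKO livers, red DKO tumors) for the sum of Mcm2 to Mcm7, Mcm10, the sum of 19 mitotic genes and the sum of 11 T, B and NK cell markers. The first and the mitotic panel both peak in DKO liver 3 and DKO tumor 2, Mcm10 is highest in wild-type livers 4 and 1, and the immune markers are highest in DKO liver 3 and lowest in tumors 1 and 4.

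At the replication fork, 11 genes were tested. They encode the primase and polymerase alpha subunits (Prim1, Pola1, Pola2), polymerases delta and epsilon (Pold1, Pole), the sliding clamp PCNA and its loader (Pcna, Rfc3, Rfc4), the single-strand binding protein subunit Rpa2, and FEN1 and LIG1, which process and join Okazaki fragments. Medians were 0.15 in DKO liver and 0.36 in DKO tumor against wild-type liver, and none passed (smallest adjusted p = 0.474 and 0.248, limma). Pcna was at 6.16, 8.67, 7.88 and 7.97 RPKM in wild-type livers (7.67 ± 1.07), 6.56, 4.75, 15.8 and 5.56 in DKO livers (8.16 ± 5.13), with 5.22, 11.2, 9.38 and 6.39 in DKO tumors (8.04 ± 2.73). DKO liver 3 stood apart at the top of its group, and the other 3 DKO livers were within or below the wild-type range. By gene name, the GENCODE annotation holds 2 pseudogene copies of Pcna and 1 of Tyms, so reads of these genes could be shared with a copy. Copies not named after a member were not searched for.

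Rpa2 was nearly level between groups, at 6.78 to 8.76 RPKM in wild-type livers (7.64 ± 0.831), 5.09 to 11.8 in DKO livers (7.43 ± 3.03), with 6.15 to 9.41 in DKO tumors (7.79 ± 1.40). Its log2 difference was -0.09 in DKO liver and 0.02 in DKO tumor against wild-type liver (adjusted p = 0.878 and 0.979, limma). Lig1 had the largest tumor difference of the 11, 0.87 (adjusted p = 0.248, limma). It was at 0.672, 2.56, 1.25 and 1.31 RPKM in wild-type livers and 2.04, 6.11, 4.19 and 2.10 in DKO tumors, so that wild-type liver 2 was above 2 of the 4 tumors.

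Nucleotide supply was covered by Rrm1 and Rrm2, the large and small subunits of ribonucleotide reductase, Tyms, thymidylate synthase, and Tk1, thymidine kinase. Rrm2, on mm9 chromosome 12 from 25393147 to 25398971, had the largest tumor difference above 0 of the 43 genes, which did not pass. It was at 2.43, 5.62, 4.42 and 2.69 RPKM in wild-type livers (3.79 ± 1.5, n = 4), 2.31, 5.19, 19.6 and 10.1 in DKO livers (9.31 ± 7.6), with 12, 31.1, 13.6 and 5.45 in DKO tumors (15.5 ± 10.9). Of the tumors, 3 were above all wild-type livers, and tumor 4 was just under wild-type liver 2. The tumor difference was 1.61 with an SE of 0.55 (adjusted p = 0.139, limma), and with the replicate number as a block it passed (SE 0.24, adjusted p = 0.0325), as the only member to do so beside 0.811% of all genes higher. That block pairs wild-type livers and tumors that share a number and no animal.

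Rrm1 varied less than its partner, at 5.34, 9.20, 6.27 and 5.02 RPKM in wild-type livers (6.46 ± 1.90), 5.58, 5.32, 13.7 and 8.00 in DKO livers (8.15 ± 3.89), with 6.16, 13.3, 9.65 and 5.83 in DKO tumors (8.73 ± 3.49). The groups overlap, and the tumor difference was 0.35 (adjusted p = 0.570, limma). Tyms, on mm9 chromosome 5 from 30385366 to 30400120, was low throughout. It was at 1.56, 1.27, 1.67 and 1.44 RPKM in wild-type livers (1.49 ± 0.17), 1.0, 1.5, 2.75 and 1.14 in DKO livers (1.60 ± 0.796), with 1.68, 3.68, 2.24 and 1.70 in DKO tumors (2.32 ± 0.937). In these deposited values all tumors were above all wild-type livers, tumors 1 and 4 by a small margin. Median-of-ratios scaling, with divisors of 1.076 and 0.9389, puts tumor 4 below wild-type liver 1. The difference of 0.38 did not pass (adjusted p = 0.361, limma).

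Tk1 went the other way in tumors. On mm9 chromosome 11 from 117676839 to 117687266, it was at 6.26, 10.3, 5.43 and 6.32 RPKM in wild-type livers (7.08 ± 2.20, n = 4), 9.66, 9.50, 14.3 and 7.29 in DKO livers (10.2 ± 2.97), with 4.72, 4.36, 7.2 and 5.68 in DKO tumors (5.49 ± 1.27). All tumors were below all DKO livers, although tumor 3 at 7.2 and DKO liver 4 at 7.29 nearly met, and both groups overlapped with wild-type livers. The tumor difference from DKO liver was -0.77 with an SE of 0.22 (adjusted p = 0.138, limma) and did not pass with the animal as a block either (adjusted p = 0.112). DKO tumor 2, the highest tumor for most replication genes, was the lowest tumor for Tk1. Tk1 overlaps Afmid, on the other strand, by 29 bases, and Afmid had a mean of 66.5 RPKM.

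Chromatin assembly and maintenance was covered by the CAF-1 subunits Chaf1a and Chaf1b and the chaperone Asf1b, which place new histones. It also held Slbp, which binds histone mRNA, and Dnmt1, Uhrf1 and Hells, which maintain DNA methylation. All 7 were above 0 against wild-type liver in both comparisons, where 60.5% (DKO liver) and 47.1% (DKO tumor) of all genes were. Their medians were 0.33 and 0.52, and none passed (smallest adjusted p = 0.5 and 0.190, limma). For DKO liver the lowest value across alternative fits was below 0 for Chaf1a, Chaf1b, Hells and Slbp (-0.20, -0.04, -0.02 and -0.08). It stayed above 0 for Asf1b, Uhrf1 and Dnmt1. Uhrf1, which recruits DNMT1 to hemimethylated DNA, was at 0.631, 1.75, 0.943 and 0.866 RPKM in wild-type livers (1.05 ± 0.486), 0.672, 1.01, 6.59 and 2.6 in DKO livers (2.72 ± 2.72), with 2.70, 9.13, 3.88 and 1.60 in DKO tumors (4.33 ± 3.33). Of the tumors, 3 were above all wild-type livers and tumor 4 was below wild-type liver 2. The difference of 1.22 with an SE of 0.48 did not pass (adjusted p = 0.190, limma), nor did it with the block (adjusted p = 0.0511). Slbp, at 4.91 to 6.51 RPKM in wild-type livers, 5.13 to 9.45 in DKO livers, with 4.76 to 9.75 in DKO tumors, had differences of 0.08 and 0.06 from wild-type liver.

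Checkpoint and repair genes were Chek1, a checkpoint kinase, Dtl, part of the ligase that degrades CDT1 in S phase, Brca1, a repair factor, Msh6, a mismatch repair subunit, and Ung, which removes uracil from DNA. Their medians were 0.20 in DKO liver and 0.45 in DKO tumor against wild-type liver, and none of the 5 tested passed. Brca1, on mm9 chromosome 11 from 101350077 to 101413268, was at 0.396, 0.951, 1.59 and 0.719 RPKM in wild-type livers (0.915 ± 0.507, n = 4), 1.51, 0.825, 1.78 and 1.72 in DKO livers (1.46 ± 0.438), with 1.81, 2.0, 1.79 and 1.84 in DKO tumors (1.86 ± 0.0965). In the deposited values the tumors lay closer together than for any other of the 44 genes, with a highest to lowest ratio of 1.12. All were above all livers of both genotypes there, DKO liver 3 by the narrowest margin. Neither held after median-of-ratios scaling, with divisors of 0.7621, 0.9424, 1.123 and 1.076 for tumors 1 to 4 and 0.9201 for DKO liver 4. The tumors were then further apart, and DKO liver 4 was above tumors 3 and 4. The tumor difference was 0.62 from wild-type liver with an SE of 0.19 (adjusted p = 0.108, limma) and 0.24 from DKO liver (adjusted p = 0.568), and neither passed.

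Msh6 was at 3.16 to 4.45 RPKM in wild-type livers (3.88 ± 0.597), 3.33 to 4.98 in DKO livers (4.10 ± 0.725), with 3.87 to 6.64 in DKO tumors (4.87 ± 1.27). Ung was at 2.59 to 4.31 RPKM in wild-type livers (3.53 ± 0.76), 2.68 to 6.25 in DKO livers (4.84 ± 1.53), with 2.43 to 4.40 in DKO tumors (3.33 ± 0.914). For both genes the groups overlap, and Ung was 1 of the few members with a tumor mean under that of the wild-type livers. Clspn, below the filter, was at 0.0682 to 0.253 RPKM in wild-type livers, 0.0808 to 0.657 in DKO livers, with 0.162 to 1.13 in DKO tumors, with its highest values in DKO liver 3 and DKO tumor 2.

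S-phase entry was covered by Ccne1 and Ccne2, the E-type cyclins, and Rbl1, which encodes the pocket protein p107. None passed in any comparison (limma, smallest adjusted p = 0.849 for DKO liver and 0.335 for DKO tumor against wild-type liver). Ccne1 was at 0.640, 2.35, 2.32 and 1.36 RPKM in wild-type livers (1.67 ± 0.826), 1.06, 0.764, 2.57 and 2.43 in DKO livers (1.70 ± 0.927), with 2.85, 6.44, 1.75 and 2.18 in DKO tumors (3.31 ± 2.14). Ccne2 was at 0.456, 1.60, 1.31 and 1.19 RPKM in wild-type livers (1.14 ± 0.487), 0.684, 1.09, 1.53 and 0.999 in DKO livers (1.08 ± 0.349), with 1.22, 3.49, 2.04 and 1.03 in DKO tumors (1.95 ± 1.12). DKO tumor 2 was the highest of all 12 libraries for both cyclins, and the means of wild-type and DKO livers were nearly the same, with differences of 0.01 and -0.03. Ccne2 overlaps Ints8, on the other strand, by 5621 bases, and Ints8 had a mean of 6.61 RPKM, so part of the Ccne2 value could come from it. Msh6 likewise overlaps Fbxo11, by 204 bases.

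Within animals, the replication genes did not move one way from liver to tumor. The median difference of the 43 genes, tumor minus liver of the same animal on the log2(RPKM + 1) scale, was 0.21 in animal 1, 1.19 in animal 2, -0.46 in animal 3 and -0.26 in animal 4. Over all tested genes it was -0.38, -0.06, -0.16 and 0.21. The tumor was higher for 28, 41, 4 and 9 of the 43 genes in animals 1 to 4, beside 22.0%, 44.8%, 28.5% and 68.6% of all genes. Animals 1 and 2 were thus on one side of 0 and animals 3 and 4 on the other. No test was run on these 4 differences, and animal 3 has the liver that was highest among DKO livers.

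Rrm2 had differences of 1.97, 2.37, -0.49 and -0.78 in animals 1 to 4. Mcm6 had 0.94, 2.19, -0.29 and -0.56, and Uhrf1 had 1.15, 2.34, -0.64 and -0.47. For each of these genes the tumor was the higher tissue in animals 1 and 2 and the lower in animals 3 and 4. The tumor was the higher tissue in all 4 animals for Brca1 and Ccne2 (beside 7.9% of all genes), although Brca1 was nearly level in animals 3 and 4, at 0.00 and 0.06. It was the lower tissue in all 4 animals for Mcm10 and Tk1 (beside 16.7% of all genes). Mcm10 had -0.76, -1.58, -0.39 and -0.98, and Tk1 had -0.90, -0.97, -0.90 and -0.31.

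**Figure D4:**
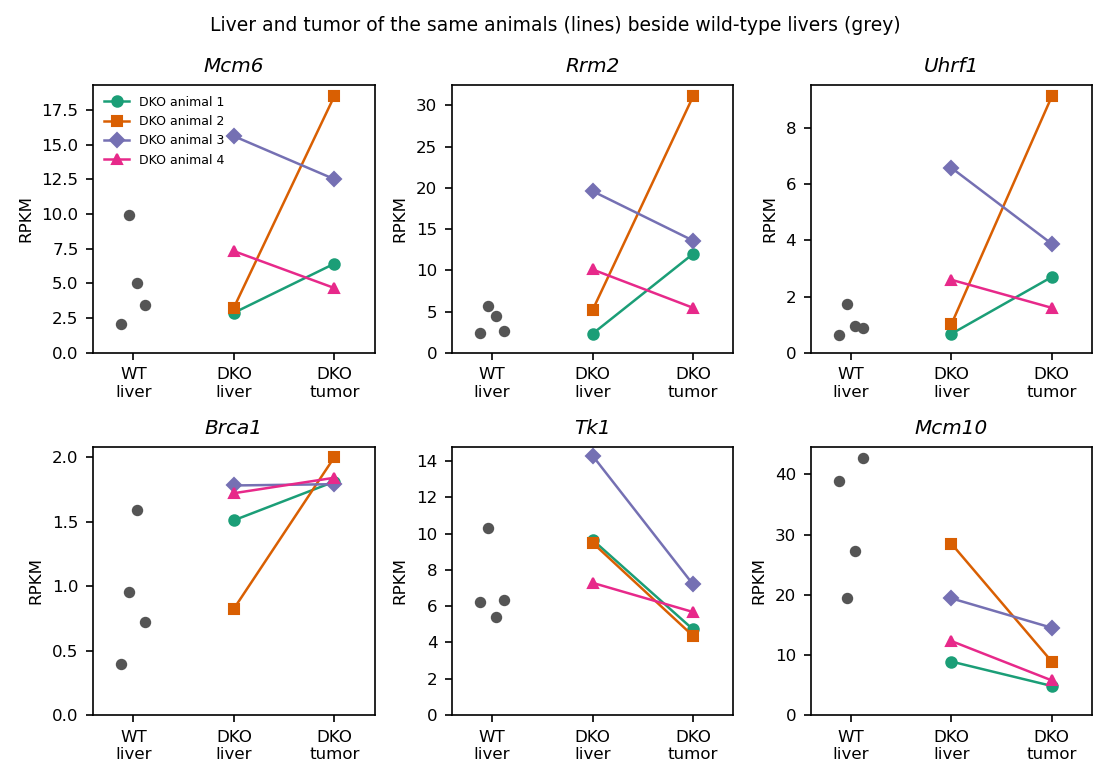
Points are RPKM of 6 genes, gray for the 4 wild-type livers and colored for DKO animals 1 to 4, with lines that join the liver and the tumor of 1 animal. Lines of Mcm6, Rrm2 and Uhrf1 go up in animals 1 and 2 and down in animals 3 and 4, those of Mcm10 and Tk1 all go down, and the tumors of Brca1 sit between 1.79 and 2.0 RPKM.

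Without animals 1 and 2 in the DKO groups, the members' median difference from wild-type liver was 0.64 for DKO liver and 0.25 for tumor. For tumor against DKO liver it was -0.36. Animals 1 and 2 are those whose tumors were higher for most members, so this last value follows from the differences above and is no separate evidence. The same animals stood apart in the clock gene Arntl, at 11.2 and 9.95 RPKM in their livers and 9.24 and 10.9 in their tumors, beside 0.484 to 2.26 in the other 8 libraries. The 11 clock genes together were lower in every DKO library than in every wild-type liver, with sums of 170 to 269 RPKM in wild-type livers, 65.8 to 133 in DKO livers, then 44.1 to 143 in tumors. None of the 10 tested passed in any comparison, and their medians were -0.62 for DKO liver and -0.99 for tumor against wild-type liver. The part of the clock state in the result was not tested.

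Other genes of the cell cycle were read from lists in the same way. Of 40 other replication genes (further polymerase, clamp loader, licensing and Okazaki fragment factors), 36 were tested and none passed in any comparison. Their medians were -0.02 in DKO liver against wild-type liver, 0.01 in tumor against wild-type liver and 0.04 in tumor against DKO liver. Their most abundant member by mean, Pole4, a polymerase epsilon subunit, was at 23.5 to 31.6 RPKM in wild-type livers, 22.8 to 30.4 in DKO livers, with 16.1 to 35.4 in DKO tumors. Rfc2, a clamp loader subunit and the next in mean, was at 13.5 to 16, 14.5 to 23.3 and 10.6 to 19.9 RPKM. Others were further apart, such as Pold4, a polymerase delta subunit, with means of 10.2 ± 2.24, 13.9 ± 1.98 and 19.3 ± 6.21 RPKM. Its tumor difference of 0.83 from wild-type liver did not pass (adjusted p = 0.0661, limma). Dbf4, at 0.437 to 0.817 RPKM in wild-type livers and 1.46 to 3.19 in DKO tumors, had a difference of 0.86 that did not pass (adjusted p = 0.0548, limma). In the other direction, Rpa3 had -0.78 (adjusted p = 0.166, limma). Of 14 other replication-coupled repair genes, 9 were tested and none passed, with medians of 0.11, 0.23 and 0.18.

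Mitotic genes had their highest DKO liver and their highest tumor in the same libraries as most replication genes. Their 19 matched members summed to 8.44 to 15.0 RPKM in wild-type livers, 11.4 to 43.5 in DKO livers, with the highest value in liver 3, and 19.1 to 56.5 in DKO tumors, with the highest in tumor 2. For tumor against wild-type liver their 16 tested members had a median of 0.71, and 1 of 16 passed, beside 1.23% of all genes higher. Kif2c, a microtubule depolymerizing kinesin, rose from 0.194 ± 0.106 to 0.846 ± 0.266 RPKM (0.62, adjusted p = 0.0462, limma). It rested on 2 to 11 reads in wild-type livers, all under the filter value of 0.5 RPKM, and on 26 to 43 reads in tumors. The sum of the 44 replication genes without Mcm10 was 94.8 to 181.1 RPKM in wild-type livers, 95.9 to 298.8 in DKO livers, with 121.7 to 295.6 in DKO tumors, so that the groups overlap. E2f1, an activating E2F gene that is itself a target, was at 0.56, 2.95, 1.5 and 1.63 RPKM in wild-type livers, 1.31, 2.63, 6.70 and 2.72 in DKO livers, with 3.16, 5.73, 3.55 and 3.08 in DKO tumors. E2f1 was highest in the 3 libraries that led for most members, and its tumor difference of 0.92 did not pass (adjusted p = 0.169, limma). Of the 10 genes of the E2F family and its partners, 9 were tested and none passed in any comparison. For tumor against wild-type liver their median was 0.13 with 6 of 9 above 0. Tfdp2 (-0.40), E2f6 (-0.17) and E2f4 (-0.04) were below 0.

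Bulk libraries cannot tell more cycling cells from more RNA per cell, nor cycling hepatocytes from other cycling cells. Markers of other cell types were therefore read beside the pattern. The 11 T, B and NK cell markers, none of which was at 0 in all libraries, summed to 5.59 to 18.8 RPKM in wild-type livers, 9.60 to 26.1 in DKO livers, with 3.53 to 16.7 in DKO tumors. The 8 macrophage and Kupffer cell markers summed to 114 to 308, 202 to 600 and 49.5 to 255 RPKM. The 9 stellate cell and fibroblast markers summed to 105 to 144, 110 to 361 and 58.9 to 251 RPKM, the 7 endothelial markers to 27.5 to 47.7, 41.0 to 96.7 and 31.6 to 80.2, and the 7 cholangiocyte and progenitor markers to 25.8 to 42.9, 28.5 to 170 and 33.5 to 122. Of these last, Prom1 was the only marker of the 5 lists to pass, higher in tumor than in wild-type liver (9.56 ± 5.45 and 0.654 ± 0.256 RPKM, adjusted p = 0.0215, limma).

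DKO liver 3 had the highest sum of the DKO livers for the T, B and NK cell (26.1), endothelial (96.7), stellate cell (361) and cholangiocyte (170) markers, and their part in its replication gene levels was not tested. Its macrophage sum was 418, beside 600 in DKO liver 1. In tumors 1 to 4 the T, B and NK cell markers summed to 3.53, 5.11, 16.7 and 3.57 RPKM, the macrophage markers to 81.0, 82.6, 255 and 49.5, and the stellate cell markers to 69.0, 60.6, 251 and 58.9. The endothelial sums were 31.6, 36.3, 80.2 and 59.3 RPKM, and the cholangiocyte sums 41.9, 44.8, 122 and 33.5. Tumor 3 was the highest tumor for all 5 lists, whereas tumor 2 was the highest for most replication genes. Wild-type liver 2 was the highest wild-type liver for endothelial markers (47.7 RPKM) and, with wild-type liver 3, for stellate cell markers (144), and it was under wild-type liver 3 for T, B and NK cell (10.8 and 18.8), macrophage (277 and 308) and cholangiocyte markers (28.5 and 35.1). The part of these cell types in the levels of the tumors and wild-type livers was not tested either.

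The members with and without the searched promoter letters were compared by their differences. For tumor against wild-type liver, the 17 tested members with a match had a median of 0.44 (range 0.14 to 1.22, all above 0), and the 21 tested members without had 0.41 (range -1.85 to 1.61, 17 above 0). The medians were 0.33 and 0.23 between the livers of both genotypes, and for tumor against DKO liver 0.26 and 0.11. The 2 ends of the tumor range, Mcm10 and Rrm2, were both among members without a match. Members without an entry among the promoter windows are in neither set. Members moved together, so they are not separate measurements, and the part of the element in the differences was not tested.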

How the data were processed

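Polyadenylated RNA of 12 mouse libraries was sequenced on a SOLiD platform, per the labels' protocols. The deposited values are RPKM, computed by the authors for 21247 RefSeq transcripts with exon lengths and coordinates on mm9. BWA and mm9 are named in the submitters' processing notes without a version, and the counting tool, strand setting and filters are not given in the sources used here. Whether coordinates count from 0 or 1 is not stated. Values times exon length were whole multiples of 1 step in at least 99.987% of cases (tolerance 0.05 read), which gave depth and reads. Without molecular identifiers, depth speaks for counting error alone.

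For each symbol the transcript of greatest exon length was used. Genes that reached 0.5 RPKM in 4 or more libraries were fitted by limma 3.58.1 (R 4.3.3) on log2(RPKM + 1), with 1 mean per group over 12 libraries, an intensity trend and robust shrinkage. Tests were two-sided with Benjamini-Hochberg adjustment over 11351 genes at 0.05. The offset of 1 understates differences of low genes. On simulated data the fit recovered 62.2% of 2-fold and 94.6% of 4-fold changes for tumor against wild-type liver. It was 64.2% and 93.8% between DKO and wild-type livers, and 67% and 94.8% for tumor against DKO liver, each over 11351 genes. These changes were in RPKM + 1, in genes drawn from all those tested, with each gene varying on its own. The members varied more than most genes and moved together, so these shares do not apply to them.

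The members and lists were chosen with earlier results of these data known. Members described in full are those past the threshold, the 4 largest differences among members whose groups did not overlap, and the 2 most abundant of each of 7 roles, with E2f7 and E2f8. Lig1, Mcm5, Cdc6, Cdt1, Gins2, Clspn, Orc1l, E2f1, Pold4, Dbf4, Rpa3 and Arntl were added after their values were seen. Liver and tumor of a number share an animal code, which is the source of the pairing; deviations of the pairs correlated at 0.117, 0.347, 0.368 and 0.00285. Alternatives covered the offset (0.1), filters (none, 1 RPKM), median-of-ratios and quantile scaling, the 8 libraries of a comparison, replicate blocks, the name tag, the most abundant transcript, voom on recovered reads, each library left out, and DKO animals 1 and 2 left out. Tables and plots were made with Python 3.11.15, numpy 2.4.6, pandas 2.3.3 and matplotlib 3.10.9.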

Additional observations from a re-analysis of the deposited data

Results flagged for a closer look

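In 4 of the 132 combinations of a member and a group, 1 library lay far from the other 3 by Dixon's criterion at 95%. For normally distributed values that criterion flags about 1 in 20, or 6.6 of 132. Mcm7, a helicase subunit, was at 6.22 RPKM in wild-type liver 2 and at 2.93 to 2.98 in the other wild-type livers. Pole, the catalytic subunit of polymerase epsilon, was at 1.25 RPKM in the same library and at 0.318 to 0.441 in the others. Clspn was at 1.13 RPKM in DKO tumor 2, from 71 reads, and at 0.162 to 0.283 in the other tumors. Slbp was at 4.91 RPKM in wild-type liver 4 and at 6.22 to 6.51 in the other wild-type livers. The values are RPKM of members that move together in the same libraries, so the count cannot be judged against that number. In the first 3 cases the library is the one that was highest of its group for most members.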

How the results depend on the processing

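Counts of genes called over the whole table moved more than those of the members. For DKO liver against wild-type liver, 0 genes became 1 with median-of-ratios scaling, with the 8 libraries alone or without DKO animals 1 and 2, and 0 to 2 with 1 library left out. For tumor against wild-type liver, 216 genes became 112 without a filter, 598 with median-of-ratios scaling, 478 with quantile normalization, 3 with the name tag as a covariate, 25 within 1 tag, 10 without DKO animals 1 and 2, and 16 to 413 with 1 library left out. With the replicate block there were 128, with 1 member that rose (Rrm2) and 0 that fell. Members that fell numbered 0 in place of 1 (Mcm10) without a filter, with the replicate block, with the name tag as a covariate, within 1 tag and without DKO animals 1 and 2, and 0 to 1 with 1 library left out. For tumor against DKO liver, 1 gene became 24 with quantile normalization, 55 with the 8 libraries alone, 71 with the replicate block, 0 with the name tag as a covariate or without DKO animals 1 and 2, and 1 to 363 with 1 library left out. No member was called in that comparison, or for DKO liver against wild-type liver, under any alternative run. The replicate block changed no other call of a member.

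With 1 library left out, the median difference of the members ranged from -0.03 to 0.40 for DKO liver against wild-type liver. It ranged from 0.21 to 0.57 for tumor against wild-type liver and from 0.02 to 0.44 for tumor against DKO liver. The last was -0.36 without DKO animals 1 and 2, whose tumors were higher for most members. The causes were not tested. Wild-type livers share replicate numbers with the DKO libraries and no animal, so their block rests on a number only. Where a comparison of 1 tag leaves 2 wild-type livers, precision is low, and tumor against DKO liver has no value within 1 tag. Depth limits Cdc6, Cdc45l, Gins2, Gins3, Asf1b, Hells, Chek1 and Clspn, which had at least 1 library under 10 reads, and Orc1l.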
